A study of Mus musculus with 56 samples.

Results

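The genes of nicotinamide adenine dinucleotide (NAD) synthesis and salvage were followed in mouse kidney over 24 h under 2 feeding regimens. The 10 genes were Nampt, Nmrk1, Kmo, Kynu, Haao, Qprt, Acmsd, Nadsyn1, Sirt1 and Nnt, chosen by name from the 17027 genes of the table, and all 10 were among the 12008 genes tested. Poly(A) RNA came from female C57BL/6J mice of 9 weeks, which all had 7 days of entrainment to 12 h light and 12 h dark with free access to food. Then, for 7 days, food was restricted to the day (DRF) or to the night (NRF, the reference), with no allele or agent added in either regimen. Kidneys were collected every 4 h from ZT0 to ZT24, where ZT is zeitgeber time counted from lights on, with 4 samples in each of the 14 groups and 56 in all. Whole kidney was sequenced, so fewer cells of a type and less RNA per cell cannot be told apart. Each sample is treated here as 1 mouse, and p-values measure the spread between these samples.

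NAD is the redox carrier of energy metabolism and is also consumed by sirtuins and by poly(ADP-ribose) polymerases. Salvage returns the nicotinamide that these enzymes release to NAD through Nampt, its rate-limiting enzyme, while Nmrk1 phosphorylates nicotinamide riboside. The de novo pathway starts from tryptophan and runs through Kmo, Kynu and Haao to a short-lived intermediate that either becomes quinolinate, the substrate of Qprt, or is diverted towards oxidation by Acmsd. Nadsyn1 makes NAD from the deamidated dinucleotide that both the de novo pathway and salvage of nicotinic acid produce. Sirt1 is an NAD-dependent deacetylase and Nnt is a mitochondrial enzyme that passes hydride from NADH to NADP. The proximal tubule of the kidney is known for de novo synthesis, and Nampt is known as a target of the circadian clock in liver.

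Salvage and the de novo branch point moved apart over the day under NRF, and this separation was smaller under DRF. Nampt peaked around lights off in both regimens. Acmsd peaked at the end of the night under NRF with the largest 24-h amplitude of the 10 genes, and no 24-h rhythm of Acmsd was called under DRF. Upstream of the branch, Kmo and Haao had no 24-h rhythm called in either regimen. Kynu, the step between them, was called in both, with fitted peaks 7.71 h apart, and both calls were lost in some alternative analyses. The peaks of Nmrk1 and Qprt lay 1.07 and 1.19 h apart between regimens. Levels are given as TPM, the transcript abundance scaled for gene length and library, on a linear scale, and the plot of levels by time shows all 10 genes.

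**Figure D1:**
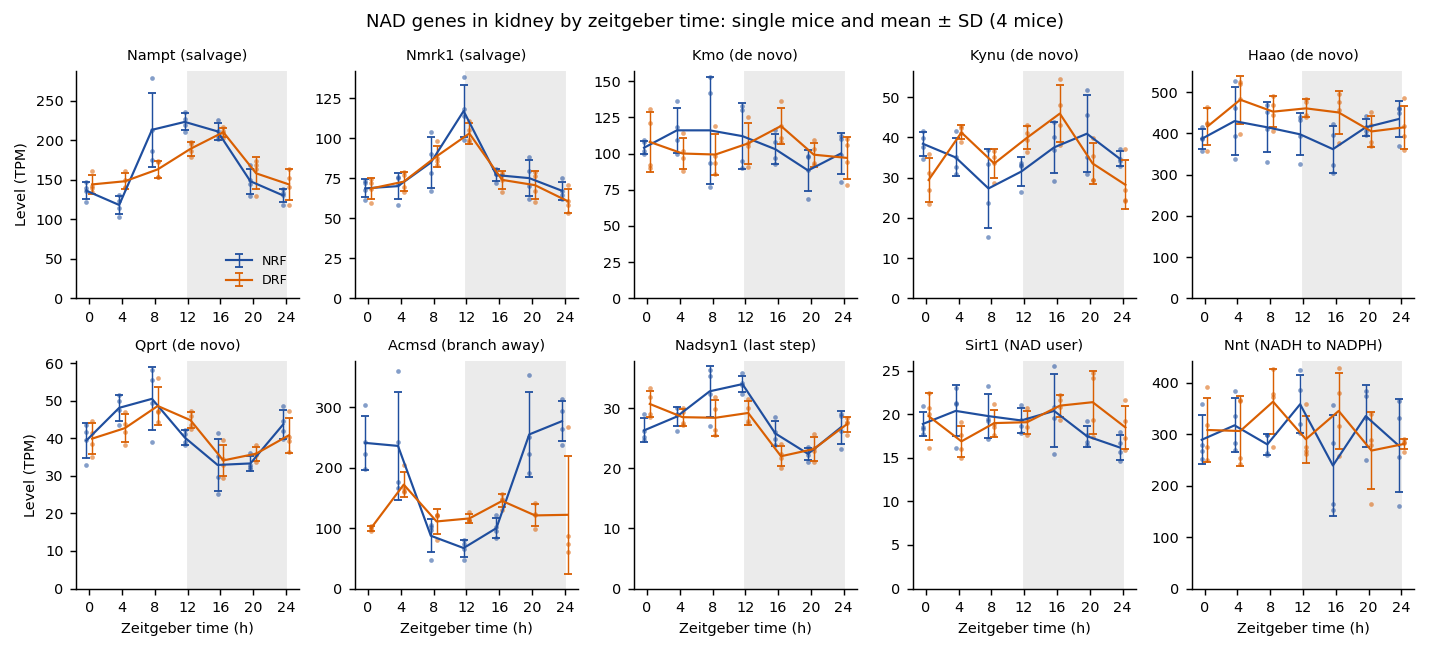
Levels of the 10 genes in TPM (linear, each axis from 0) against zeitgeber time in h. Points are single mice, lines join the means of 4 mice, bars are ± SD, blue is NRF, orange is DRF and grey is the dark phase; Acmsd ran from 67.0 to 277 TPM under NRF and from 99.7 to 172 TPM under DRF as group means.

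The bases before the start of Nampt are shown because Nampt is the rate-limiting enzyme of salvage and peaked around lights off in both regimens. They are the 250 bases 5′ of the RefSeq start on GRCm38.p6, read 5′ to 3′ on the plus strand, at chr12:32820085-32820334, with GC boxes (GGGCGG, or CCGCCC on the other strand) in capitals.
Nampt: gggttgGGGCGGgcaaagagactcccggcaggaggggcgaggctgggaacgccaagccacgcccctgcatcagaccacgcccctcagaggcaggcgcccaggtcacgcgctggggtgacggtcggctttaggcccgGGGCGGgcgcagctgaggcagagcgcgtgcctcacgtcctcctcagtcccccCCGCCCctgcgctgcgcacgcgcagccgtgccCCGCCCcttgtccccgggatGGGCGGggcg
The Nampt window lies inside an intron of a longer GENCODE M21 transcript of Nampt. It held 5 GC boxes, 27 CG dinucleotides and 75.6% GC. Over all 32851 RefSeq windows of that length, the median was 6 CG dinucleotides and 52.4% GC, and 32.7% held a GC box on either strand. The canonical E-box CACGTG was in 6.02% of all windows and was not in the Nampt window. These counts describe letters in 1 window and do not show binding.

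Proximal tubule markers were high in every library, with 9 of 10 listed genes measured and a summed level of 5980 to 10400 TPM. The 3 loop of Henle markers summed to 3770 to 9280 TPM, and the 2 podocyte markers to 78.3 to 241 TPM. The lowest proximal tubule sum was in NRF ZT8 mouse 1, beside 8410 TPM of loop of Henle markers. Adipose markers summed to a median of 4.11 TPM and reached 685 TPM in 1 NRF ZT12 library, and liver markers had a median of 44.5 TPM and reached 402 TPM in 1 NRF ZT0 library. The 2 means over regimens were 8320 TPM under NRF and 8300 TPM under DRF for the proximal tubule list. Means of some other lists lay further apart. Adipose markers had 67.5 TPM under NRF and 21.5 TPM under DRF, and immune markers 938 and 766 TPM. Collecting duct and medulla markers had 851 TPM under NRF and 1000 TPM under DRF. The part of tissue make-up in the differences below was not tested beyond a fit with the proximal tubule sum as a covariate. Reads recovered from the deposited values were 22.22 to 24.61 M per library (M for mega), and the 10 genes each had between 483 reads (the lowest library of Nadsyn1) and 10557 reads (the highest of Nnt).

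Over the 56 mice Haao was highest with 423 ± 52.6 TPM (SD), followed by Nnt with 304 ± 65.4 TPM. Nampt had 167 ± 37.5 TPM and Acmsd 154 ± 78.4 TPM. Kmo had 105 ± 17.0 TPM and Nmrk1 78.5 ± 16.9 TPM. Qprt had 41.1 ± 6.79 TPM, Kynu 35.5 ± 7.20 TPM, Nadsyn1 27.6 ± 3.96 TPM and Sirt1 19.2 ± 2.50 TPM. Neighbours in this order overlapped across single mice. The lengths of Haao (1222 bases) and Nmrk1 (3345 bases) were found by search, so their place in the order rests on those lengths. Nnt rests on 1 of 2 overlapping GENCODE models of this gene, on chromosome 13, and C57BL/6J mice are known to carry a deletion in Nnt. The deposited value of a gene behaves as log2(CPM + 1) divided by its length. On that log2 scale the direction of a difference between groups does not depend on the length used, but its size does.

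Nampt (chr12:32819545-32853349, plus strand, 5054 bases of exon) had a 24-h rhythm under both regimens. Under NRF the mice at ZT4 had 123, 103, 130 and 114 TPM, and those at ZT12 had 236, 219, 227 and 210 TPM. All ZT12 mice were above all ZT4 mice. At ZT8 the NRF mice had 186, 175, 213 and 279 TPM, so mouse 4 stood well above the others. Under DRF the mice at ZT4 had 161, 141, 139 and 150 TPM, at ZT8 154, 173, 154 and 172 TPM, and at ZT16 217, 211, 203 and 209 TPM. The DRF profile climbed more slowly and reached its highest group mean at ZT16, against ZT12 under NRF, and the highest group mean was 1.90 times the lowest under NRF and 1.45 times under DRF.

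The rhythm of each gene was fitted as a 24-h cosine of log2(TPM + 1) with limma, and p-values were adjusted by the Benjamini-Hochberg method over all genes tested. The phase is the time of the fitted peak, the amplitude measures how far that peak rises over the average, and a gene is called with an adjusted p under 0.05. The Nampt phase was ZT12.8 ± 0.446 h (SE) under NRF and ZT14.0 ± 0.537 h under DRF, a shift of 1.22 ± 0.698 h. Its amplitude was 0.45 ± 0.047 under NRF (adjusted p = 5.61e-08) and 0.26 ± 0.034 under DRF (adjusted p = 8.63e-06). The rhythm differed between regimens with an adjusted p of 0.00566 in the limma interaction test, which takes phase and amplitude together. Without mouse 1 of every group that adjusted p was 0.0645, and without mouse 3 it was 0.0677. For reference, the core clock genes Arntl and Per2 peaked at ZT22.7 and ZT14.7 under NRF and at ZT20.6 and ZT11.4 under DRF.

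At the same ZT, Nampt was 0.33 ± 0.10 log2 units (SE) higher under DRF at ZT4 (limma adjusted p = 0.00972) and 0.36 ± 0.10 lower at ZT8 (log2 difference -0.36, adjusted p = 0.00849), and the 4 mice of each regimen did not overlap at either time. The ZT4 adjusted p was 0.0606 without mouse 1, and the ZT8 adjusted p was 0.13 without mouse 3 and 0.0952 without mouse 4. At ZT12 the mice did not overlap either, with means of 189 ± 8.90 TPM under DRF and 223 ± 10.8 TPM under NRF, and the limma adjusted p was 0.0917. At ZT0, ZT16, ZT20 and ZT24 the differences were at most 0.14 log2 units in size and none passed.

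Nmrk1 (chromosome 19), the kinase of nicotinamide riboside, peaked late in the light phase in both regimens. At ZT12 the NRF mice had 99.2, 114, 118 and 138 TPM and the DRF mice had 97.5, 99.0, 105 and 111 TPM. At ZT24 the NRF mice had 62.3, 64.5, 67.0 and 75.0 TPM and the DRF mice had 53.1, 58.2, 60.8 and 70.9 TPM. In each regimen all ZT12 mice were above all ZT24 mice, while the regimens overlapped at both times. The phase was ZT11.9 ± 0.767 h under NRF and ZT10.8 ± 0.56 h under DRF, and the amplitude was 0.29 in both, with limma adjusted p of 0.000133 and 8.87e-06. The interaction test gave an adjusted p of 0.626, and none of the 7 differences at the same ZT passed, with values between -0.17 and 0.08 log2 units. The Nmrk1 length gave whole reads in 40 of 56 libraries, fewer than for the other genes.

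Acmsd (chr1:127729413-127767978, plus strand, 2831 bases of exon) had the widest range of the 10 genes. Under NRF the mice at ZT0 had 243, 303, 197 and 223 TPM, at ZT12 73.5, 66.2, 47.7 and 80.6 TPM, and at ZT24 264, 238, 294 and 313 TPM. No ZT12 mouse came near the mice at ZT0 or ZT24, and the highest group mean was 4.14 times the lowest. Under DRF the mice at ZT0 had 101, 104, 97.8 and 95.6 TPM, at ZT4 161, 204, 159 and 166 TPM, at ZT12 112, 113, 114 and 127 TPM, and at ZT16 148, 146, 130 and 156 TPM. The DRF profile had a high point at ZT4 and another at ZT16, and the highest group mean was 1.73 times the lowest. At DRF ZT24 mouse 4 had 268 TPM while the others had 60.6, 74.4 and 86.6 TPM.

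The Acmsd phase under NRF was ZT23.6 ± 0.379 h with an amplitude of 1.06 ± 0.093 (limma adjusted p = 2.81e-09). Under DRF the amplitude was 0.08 ± 0.11 (adjusted p = 0.815), so its fitted phase has no use. The interaction test gave an adjusted p of 9.52e-08, and Acmsd was called there in each of the 15 alternative analyses. Acmsd was lower under DRF at ZT0 by 2.38-fold (log2 difference -1.25 ± 0.26, limma adjusted p = 0.000516), at ZT20 by 2.05-fold (adjusted p = 0.00402) and at ZT24 by 2.71-fold (adjusted p = 0.000113). It was higher under DRF at ZT12 by 1.75-fold (log2 difference 0.81 ± 0.26, adjusted p = 0.0236), a call that was not made without mouse 2 (adjusted p = 0.0828) or without mouse 3 (adjusted p = 0.224). At ZT0, ZT12, ZT16 and ZT20 the mice of the regimens did not overlap, at ZT24 they overlapped through DRF mouse 4 alone, and without mouse 4 the ZT24 difference was -1.90 log2 units. The ZT16 difference of 0.54 ± 0.26 did not pass (limma adjusted p = 0.241).

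The ratio of Nampt to Acmsd in single kidneys put salvage against the branch away from de novo synthesis. Late in the light phase and around lights off the NRF ratio was high, with 2.66 ± 1.01 (SD, n = 4 mice) at ZT8, 3.47 ± 0.908 at ZT12 and 2.15 ± 0.432 at ZT16. It was low late in the night and early in the light phase, with 0.613 ± 0.17 at ZT20, 0.473 ± 0.0573 at ZT24, 0.582 ± 0.135 at ZT0 and 0.536 ± 0.137 at ZT4. Every NRF mouse had more Nampt than Acmsd per length from ZT8 to ZT16, and every NRF mouse had less at the other times. Under DRF the ratio had means of 0.868 at ZT4 and 1.33 to 1.71 at the other times. The single-mouse range was 0.343 to 4.75 under NRF and 0.441 to 2.71 under DRF, and the lowest DRF value was mouse 4 at ZT24. The ratio of Qprt to Acmsd, the 2 enzymes that draw on the branch intermediate or its product, moved between group means of 0.139 at ZT20 and 0.626 at ZT12 under NRF and between 0.235 at ZT16 and 0.447 at ZT8 under DRF. These ratios are descriptions of levels and were not tested.

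**Figure D2:**
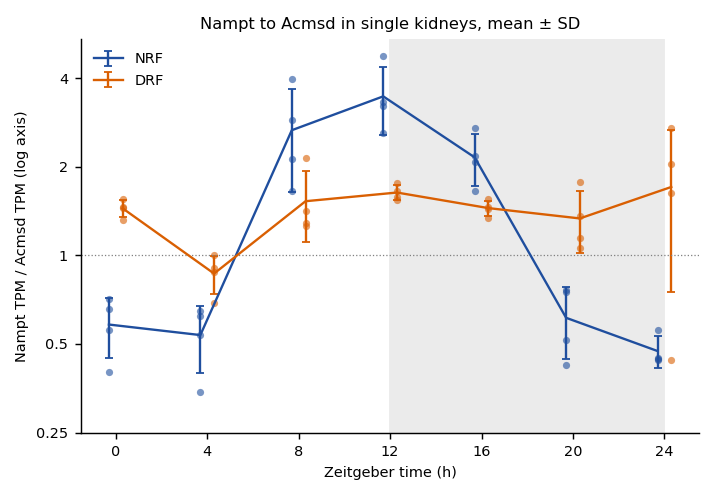
Ratio of Nampt TPM to Acmsd TPM in each kidney (log axis) against zeitgeber time in h, with NRF in blue, DRF in orange, the dark phase in grey and the mean ± SD of 4 mice. NRF means swing from 0.473 at ZT24 to 3.47 at ZT12, while DRF means stay between 0.868 and 1.71.

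Among the de novo enzymes, Qprt (chromosome 7), which turns quinolinate into the nicotinic acid mononucleotide, peaked in the light phase in both regimens. At ZT8 the NRF mice had 39.1, 58.1, 55.4 and 49.3 TPM and the DRF mice had 47.3, 56.0, 46.9 and 44.2 TPM. At ZT16 the NRF mice had 41.3, 25.2, 29.7 and 35.4 TPM and the DRF mice had 29.3, 34.5, 32.9 and 39.5 TPM. The ZT8 and ZT16 mice overlapped under NRF and did not overlap under DRF, and the regimens overlapped at both times. At ZT12 all DRF mice were above all NRF mice, with means of 44.8 and 40.2 TPM, but the difference did not pass (limma adjusted p = 0.347). The share of all genes without overlap was not counted. The phase was ZT5.80 ± 0.491 h under NRF and ZT6.99 ± 0.609 h under DRF, with amplitudes of 0.32 and 0.22 and limma adjusted p of 1e-05 and 0.000389. The interaction test did not pass (adjusted p = 0.161), but it passed without mouse 1 (adjusted p = 0.0235).

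Kynu (chromosome 2), the kynureninase, was called rhythmic in both regimens with fitted peaks far apart. At ZT0 the NRF mice had 39.8, 37.7, 41.5 and 34.6 TPM and the DRF mice had 27.0, 35.9, 31.2 and 23.4 TPM. At ZT12 the NRF mice had 26.3, 33.2, 33.7 and 32.9 TPM and the DRF mice had 39.3, 41.1, 36.3 and 43.1 TPM, so the order of the regimens turned and the mice did not overlap at ZT12. The phase was ZT20.4 ± 1.06 h under NRF and ZT12.7 ± 1.21 h under DRF, a shift of -7.71 ± 1.61 h. The amplitudes were 0.25 and 0.22. The DRF group means had high points at ZT4 (41.2 TPM) and ZT16 (45.9 TPM), with 39.9 TPM at ZT12. A single fitted peak thus describes the DRF profile only in part. The limma adjusted p was 0.015 under NRF and 0.0197 under DRF, and 0.00201 in the interaction test. No single time point passed, with differences between -0.39 (ZT0) and 0.36 (ZT8), but with the proximal tubule sum as a covariate Kynu was called at 6 of 7 time points, all but ZT16, and without mouse 4 it was called at ZT8. The NRF rhythm of Kynu was not called without mouse 1 or without mouse 3, and the DRF rhythm was not called without mouse 1, without mouse 2, without mouse 3 or without ZT24, while the interaction was called in all of these. The lowest Kynu value of all, 15.3 TPM, was in NRF ZT8 mouse 1, the library with the lowest proximal tubule sum.

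Kmo (chromosome 1) and Haao (chromosome 17) varied more between mice than between times. Kmo, the kynurenine monooxygenase, had group means of 88.3 to 116 TPM under NRF and 97.0 to 119 TPM under DRF. Its single mice at NRF ZT8 had 77.0, 142, 93.5 and 153 TPM, which nearly spans the range of all 56 mice (68.4 to 153 TPM). Haao, whose product is the branch intermediate, had group means of 362 to 435 TPM under NRF and 405 to 482 TPM under DRF. The 24-h limma adjusted p was 0.112 and 0.312 for Kmo and 0.328 and 0.104 for Haao under NRF and DRF. The NRF rhythm of Kmo was called without mouse 1 (adjusted p = 0.0151) and with the proximal tubule covariate (adjusted p = 0.0262, and 0.00912 for the interaction), and the DRF rhythm of Haao was called without mouse 4 (adjusted p = 0.0416). In both genes the highest and the lowest group overlapped in each regimen. At ZT12 the Haao values of all DRF mice were above those of all NRF mice. The means were 461 and 398 TPM, and the difference did not pass (limma adjusted p = 0.203). Haao had the largest mesor difference among the genes that were higher under DRF, 0.14 ± 0.05 log2 units, with a limma adjusted p of 0.0503, where the mesor is the average of the log2 levels around the clock.

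Nadsyn1 (chr7:143795584-143822849, minus strand), the NAD synthetase, kept a daytime rhythm whose fitted peak came earlier under DRF. At ZT12 the NRF mice had 32.4, 33.8, 35.8 and 34.1 TPM and the DRF mice had 31.5, 27.5, 27.8 and 30.1 TPM. At ZT0 the NRF mice had 24.7, 29.1, 26.2 and 25.2 TPM and the DRF mice had 29.0, 33.3, 31.8 and 28.6 TPM. All NRF mice were above all DRF mice at ZT12, and the regimens overlapped at ZT0, where the DRF mean was higher. The phase was ZT8.64 ± 0.534 h under NRF and ZT5.31 ± 0.731 h under DRF, a shift of -3.33 ± 0.905 h, with amplitudes of 0.25 and 0.19 and limma adjusted p of 6.89e-06 and 0.00263. The fitted NRF peak moved to between ZT9.3 and ZT9.41 in 4 of 15 alternative analyses. From ZT0 to ZT12 the DRF group means were nearly level, at 30.7, 28.5, 28.4 and 29.2 TPM. A single fitted peak thus describes this DRF profile only in part. The interaction test gave an adjusted p of 0.00406, and 0.0638 without mouse 3. The differences at ZT0 (0.22 ± 0.08, limma adjusted p = 0.0461) and ZT12 (-0.22 ± 0.08, adjusted p = 0.0433) passed narrowly and were not called in 6 and 7 of 15 alternative analyses.

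Sirt1 (chromosome 10), the deacetylase, and Nnt, the mitochondrial hydride carrier, had no 24-h rhythm called in either regimen. Sirt1 group means ran from 16.2 to 20.4 TPM under NRF and from 16.9 to 21.4 TPM under DRF, and the highest and lowest groups overlapped in each. Its 24-h amplitude was 0.09 under NRF (limma adjusted p = 0.189) and 0.13 under DRF (adjusted p = 0.0547). The DRF rhythm of Sirt1 was called in 7 of 15 alternative analyses, among them log2(CPM + 1) (adjusted p = 0.00658) and limma-voom (adjusted p = 0.0067), and the NRF rhythm was called without mouse 2 (adjusted p = 0.0184). The interaction test of Sirt1 gave an adjusted p of 0.0494 in the analysis reported and lay between 0.0045 and 0.308 over the alternatives, with 9 of 15 above the threshold. Nnt had group means of 239 to 358 TPM under NRF and 268 to 363 TPM under DRF, and the NRF mice at ZT16 alone had 356, 283, 152 and 164 TPM. None of its rhythm tests passed, with limma adjusted p of 0.818 under NRF, 0.377 under DRF and 0.867 for the interaction.

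**Figure D3:**
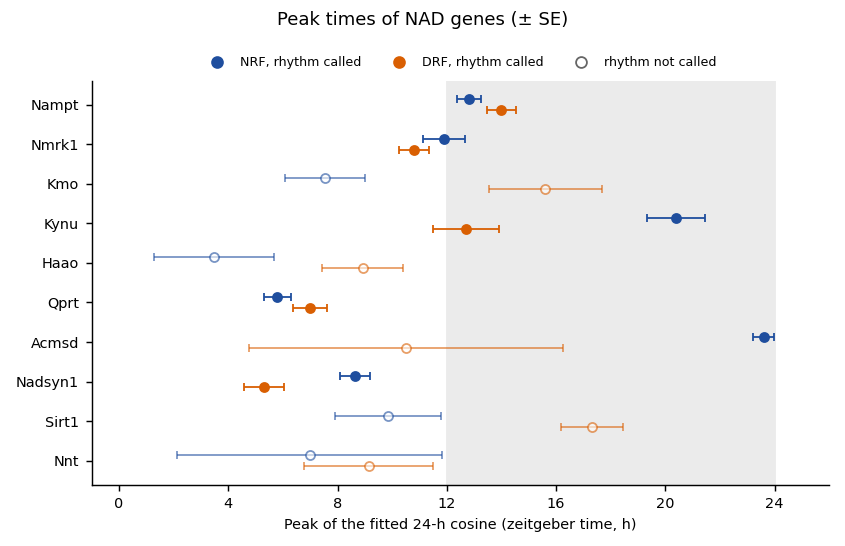
Time of the fitted 24-h peak (h, ± SE) of each gene under NRF (blue) and DRF (orange), filled where the rhythm was called and open where it was not, with the dark phase in grey. Nampt, Nmrk1 and Qprt have filled points close together, Kynu has filled points 7.71 h apart, and Acmsd has a filled point under NRF only.

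Counted over the 10 genes, 6 had a 24-h rhythm called under NRF, where 54.7% of all genes tested were called. Under DRF 5 were called, where 36.2% of all genes were called, and all 5 were also called under NRF, where 25.7% of all genes were dual-oscillating. Of these 5, Nampt, Nmrk1, Qprt and Nadsyn1 had shifts of at most 4 h, which is called phase-locked, and Kynu lay between phase-locked and phase-inverted (8 to 12 h). The share of phase-locked genes among all dual-oscillating genes was not counted here, so these shifts describe the named genes only. The rhythm differed between regimens in 5 of 10 genes (Nampt, Kynu, Acmsd, Nadsyn1 and Sirt1), with 45.6% of all genes called, so the share among these genes is near that of all genes. On the log2 scale the median amplitude of the 10 genes was 0.25 in NRF mice and 0.16 in DRF mice, against 0.1326 and 0.1086 over all genes tested.

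Differences at the same ZT asked what the regimen changed at a fixed light phase. They were called in 8 of 70 gene by time point pairs, with 16.5% of all such pairs called over all genes. The 8 were 2 of Nampt, 4 of Acmsd and 2 of Nadsyn1, and 3 were higher and 5 lower under DRF, against 7.2% higher and 9.28% lower over all genes. With log2(CPM + 1) the split over all genes turned to 10.5% higher and 9.87% lower, while the 10 genes had 2 higher and 4 lower. The share of all genes called was largest at ZT4 (27.6%), lay at 18.7% for ZT12, 17.1% for ZT0, 17.0% for ZT20, 15.2% for ZT8 and 14.9% for ZT24, and was smallest at ZT16 (4.9%). Of the 10 genes 2 were called at ZT0 and at ZT12, 1 at each of ZT4, ZT8, ZT20 and ZT24, and none at ZT16. With the proximal tubule sum as a covariate 18 of 70 were called, 8 higher and 10 lower. Of these 18, 6 were of Kynu, 4 each of Acmsd and Nadsyn1 and 2 each of Nampt and Haao. Calls over all genes also rose with this covariate at each time point, for example from 3319 to 3761 of 12008 at ZT4. Without mouse 3, 4 of 70 were called, and calls over all genes fell at each time point, for example from 3319 to 1815 of 12008 at ZT4. The median difference of the 10 genes lay between -0.06 and 0.13 log2 units at the 7 time points.

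Food was given in opposite 12 h parts of the day, so DRF was also compared with NRF 12 h apart, which matches the time since feeding began and sets the light phase opposite. For that comparison ZT0 and ZT24 were averaged as 1 clock time. Of 60 pairs 19 were called, with 17.6% of all such pairs called over all genes, and 8 of these were higher and 11 lower under DRF, against 7.31% and 10.3% over all genes. With log2(CPM + 1) the split over all genes was 9.49% higher and 9.28% lower, and that of the 10 genes was 7 higher and 11 lower. The share of all genes called was 10.3%, 18.2%, 14.7%, 16.8%, 33.3% and 12.3% for DRF ZT0, ZT4, ZT8, ZT12, ZT16 and ZT20, and 3 of the 10 genes were called in each of these but DRF ZT4, where 4 were. Nampt differed in 5 of 6 of these comparisons, from -0.63 ± 0.09 log2 units for DRF ZT0 against NRF ZT12 (limma adjusted p = 2.97e-07) to 0.84 ± 0.10 for DRF ZT16 against NRF ZT4 (adjusted p = 7.17e-09). Each of those 5 calls was made in all 15 alternative analyses. The one pair of Nampt that did not pass was DRF ZT8 against NRF ZT20, at 0.14 ± 0.10. Nmrk1 differed at DRF ZT0 (-0.85 ± 0.09, adjusted p = 2.69e-09) and at DRF ZT12 (0.60 ± 0.09, adjusted p = 5.95e-06), the times of its low and high levels in both regimens.

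In the same comparison 12 h apart, Qprt and Nadsyn1 were each called in 4 of 6 pairs and Acmsd in 3 of 6. Qprt was higher at DRF ZT4 (0.38) and ZT8 (0.53) and lower at DRF ZT16 (-0.49) and ZT20 (-0.47), and of these the ZT4 call was lost in 5 of 15 alternative analyses (adjusted p = 0.246 without mouse 2). Acmsd was higher at DRF ZT4 (0.78) and lower at DRF ZT8 (-1.17) and ZT12 (-1.14), and of these the ZT4 call was lost in 4 of 15 (without mouse 1, 2 or 3 and with the deposited values taken as TPM). The call of Nadsyn1 at DRF ZT0 was lost in 6 of 15. Thus Acmsd, Nampt and Nadsyn1 each had calls both at the same light phase and at the same feeding phase. Nmrk1 and Qprt were called in the feeding-phase comparison and in none of the 7 comparisons at the same ZT. A gene with a similar rhythm in both regimens is expected to differ 12 h apart. The calls of Nmrk1 and Qprt thus restate that their peaks lay close together in the 2 regimens. Haao was called in 1 pair (DRF ZT4, 0.41 ± 0.12), and this was lost in 6 of 15 alternative analyses. Kmo, Kynu, Sirt1 and Nnt were called in none, with absolute differences of at most 0.42. Some alternative analyses did call Sirt1 and Kynu. Sirt1 was called at DRF ZT4 with log2(CPM + 1), deposited values taken as TPM, median-of-ratios rescaling and limma-voom, and without mouse 1. Kynu was called at DRF ZT16 with log2(CPM + 1), median-of-ratios rescaling, limma-voom and the proximal tubule covariate, and without mouse 1. For DRF ZT16 against NRF ZT4 the median of all genes lay at -0.102 log2 units, and scaling by log2(CPM + 1) moved a median of all genes by up to 0.115.

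**Figure D4:**
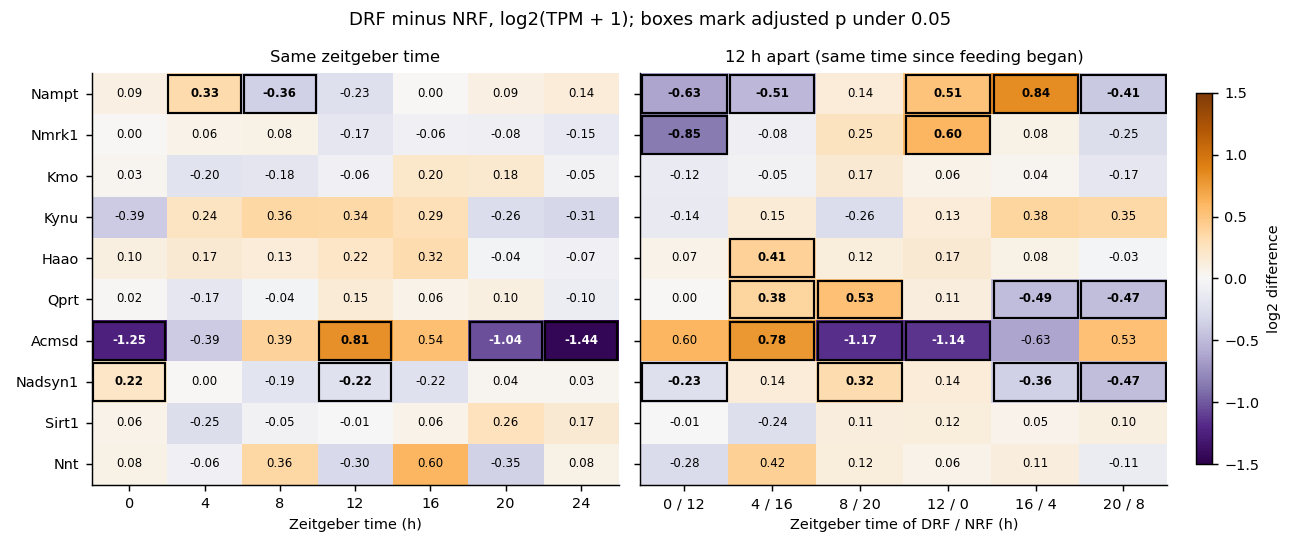
Differences DRF minus NRF in log2(TPM + 1) for each gene (rows) at the same zeitgeber time (left columns) and 12 h apart (right columns, DRF time before NRF time), orange where DRF was higher and purple where NRF was higher. Boxes mark limma adjusted p under 0.05: 8 of 70 on the left and 19 of 60 on the right, with 4 and 3 of these in Acmsd and 2 and 5 in Nampt.

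To ask whether the genes peaked more than once a day, DRF and NRF profiles were each tested for a 12-h component added to the 24-h cosine. Under NRF limma called 0 of the 10 genes, where 0.691% of all genes were called, and the smallest adjusted p was 0.248 (Nadsyn1). At an unadjusted p under 0.05 there were 2 genes with limma and 3 with limma-voom, which also called 0. Under DRF 3 of 10 were called, where 24.8% of all genes were called. Kynu had a 12-h amplitude of 0.25 ± 0.05 with peaks at ZT4.00 and ZT16.0 (limma adjusted p = 0.00364), and Acmsd had 0.35 ± 0.10 with peaks at ZT4.36 and ZT16.4 (adjusted p = 0.0351). These 2 genes thus had their DRF peaks at nearly the same times, early in the light phase and early in the dark phase. Nadsyn1 had 0.13 ± 0.03 with peaks at ZT11.7 and ZT23.7 (adjusted p = 0.00659). Without mouse 3 only Nadsyn1 was called, while calls over all 12008 genes fell from 2982 to 1693. Acmsd was also not called without mouse 1, without mouse 2 or with the proximal tubule covariate. Whether the 12-h component itself differed between regimens was not tested.

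The mesor difference was called in 0 of the 10 genes by limma and by limma-voom, where 9.27% of all genes were called by limma, and 2 and 1 genes had an unadjusted p under 0.05. The differences lay between -0.17 (Acmsd) and 0.14 (Haao). The mesor of Haao was called without mouse 4 and without ZT24, and those of Haao, Kynu and Nadsyn1 with the proximal tubule covariate. ZT24 and ZT0, the same clock time on successive days, gave 0 calls in 20 gene by regimen pairs with limma and with limma-voom, each with 1 pair at an unadjusted p under 0.05, where 0.279% of such pairs were called over all genes. The DRF Acmsd means were 99.7 ± 3.77 TPM at ZT0 and 122 ± 97.9 TPM at ZT24.

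A further 40 genes of NAD metabolism were listed beside the 10, of which 31 were tested. Nmnat2, Nmrk2, Ido1, Tdo2, Aox1, Slc12a8 and Sarm1 were under a mean of 1 TPM, and Pnp and Parp9 gave fractional reads and were not tested. Of the 31 genes, 18 (58.1%) had a 24-h rhythm called under NRF, 16 (51.6%) under DRF and 12 (38.7%) under both, against 54.7%, 36.2% and 25.7% of all genes tested. The rhythm differed between regimens in 14 (45.2%), with 45.6% of all genes called. At the same ZT, 13 of 217 pairs of gene and time point were called higher (5.99%) and 27 lower (12.4%) under DRF, against 7.2% and 9.28% over all genes. With log2(CPM + 1) there were 16 higher and 20 lower, against 10.5% and 9.87% over all genes. Ido2, which can open the tryptophan ring at the entry of the de novo pathway, had the smallest interaction p (limma adjusted p = 1.85e-08), with peaks at ZT21.3 under NRF and ZT11.7 under DRF and amplitudes of 0.34 and 0.39. Kyat1, a kynurenine aminotransferase of a side branch, peaked at ZT8.20 under NRF with an amplitude of 0.26 and was not called under DRF (amplitude 0.08). Nmnat1, which joins the mononucleotide to ATP, had amplitudes of only 0.11 and 0.14 with peaks at ZT22.5 and ZT7.50.

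Nadk2, the mitochondrial NAD kinase, peaked at ZT8.42 under NRF and ZT23.4 under DRF. Slc25a51, a carrier of NAD into mitochondria, was called under DRF only (phase ZT16.3) and had a lower mesor under DRF (-0.09 ± 0.02, limma adjusted p = 0.0182), which was not called with log2(CPM + 1), median-of-ratios rescaling or limma-voom. Nt5e, an ectonucleotidase, had an amplitude of 0.70 under NRF and 0.16 under DRF, where it was not called, and it was 0.89 log2 units higher under DRF at ZT12. Among the NAD users, Parp2 peaked at ZT5.77 and ZT22.8, and Parp10 had amplitudes of 0.65 and 0.22 and a mesor 0.35 log2 units lower under DRF (log2 difference -0.35, adjusted p = 2.36e-05). All 6 mesor differences called in the list (Nadk, Slc25a51, Parp3, Parp10, Parp14 and Sirt6) were lower under DRF, where 6.11% of all genes were called lower and 3.16% higher. With log2(CPM + 1), median-of-ratios rescaling or limma-voom the list had 4 lower (Parp3, Parp10, Parp14 and Sirt6) and 1 higher (Kyat1), and the split over all genes turned, with 4.48% lower and 5.19% higher for log2(CPM + 1).

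Over the 14 group means of log2(TPM + 1), the genes with profiles most like Nampt were Wee1 (r = 0.9312), Snrk (0.9174), Sik1 (0.9135), Etv6 (0.9118) and Herpud1 (0.9111). Among the 10 genes, Nmrk1 was most like Nampt (r = 0.6806) and Acmsd least (r = -0.7174). The r of Nampt with the de novo genes was 0.357 for Kmo, 0.0084 for Kynu, -0.1718 for Haao and -0.2196 for Qprt. Qprt and Nadsyn1, the later steps of the de novo route, had an r of 0.6896 with each other. These are descriptions over 14 points of the same mice and libraries, with no test.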

How the data were processed

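The authors deposited 1 table of values named TPM for 17027 genes and 56 libraries of paired 100-base reads on BGISEQ-500; the submitters' notes name HISAT2, Bowtie2, RSEM and GRCm38.p6. The deposited values behaved as a score, log2(CPM + 1) divided by gene length and scaled to a common sum, and the comparisons had assumed linear TPM. Reads were recovered with GENCODE M21 exon lengths, or lengths found by search (726 genes), at which 99.48% of values were whole within 0.1 of a read; 1889 genes with fractional reads and 270 with no length were not tested. Lengths of 87.3% of genes were taken. Reads were converted to linear TPM, and log2(TPM + 1) of the 12008 genes whose mean TPM reached 1 was fitted with limma 3.58.1 (R 4.3.3), using its mean-variance trend and Benjamini-Hochberg adjustment over all genes tested. The scripts were tested on simulated data. Libraries were grouped by the labels, and 1 NRF ZT24 library carried no replicate number of the labels. Precision rests on 22.22 to 24.61 M recovered reads per library and 4 mice per group. The genes and lists were chosen with earlier results of these data known. Named were all 10 genes, the 8 other NAD genes with the smallest interaction p, the 5 genes most like Nampt, and clock genes, of which Nr1d1 and Dbp had fractional reads. Alternatives changed the scaling, pseudocount, filter, libraries, covariate and test.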

Additional observations from a re-analysis of the deposited data

Results flagged for a closer look

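Single mice stood apart from the other 3 of their group in 8 of 140 gene by group sets by Dixon's test for 4 values, a number near the 5% that chance gives. In 5 of the 8 the gene was Acmsd. At DRF ZT24 mouse 4 had 268 TPM of Acmsd and the others 60.6 to 86.6 TPM. At DRF ZT4 mouse 2 had 204 TPM of Acmsd and the others 159 to 166 TPM. At DRF ZT8 mouse 4 had 80.2 TPM of Acmsd and the others 120 to 122 TPM, and at DRF ZT12 mouse 4 had 127 TPM and the others 112 to 114 TPM. At NRF ZT8 mouse 1, the library with the lowest proximal tubule sum, had 46.6 TPM of Acmsd and the others 96.8 to 105 TPM. Kynu in NRF ZT12 mouse 1 was 26.3 TPM and 32.9 to 33.7 TPM in the others. Haao in the NRF ZT24 library with no number was 369 TPM and 450 to 461 TPM in the others. Nnt in DRF ZT12 mouse 3 was 358 TPM and 262 to 275 TPM in the others.

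A difference of the 24-h rhythm between regimens passed the limma interaction test in 5 genes. The adjusted p was 9.52e-08 for Acmsd, 0.00201 for Kynu, 0.00406 for Nadsyn1, 0.00566 for Nampt and 0.0494 for Sirt1.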

How the results depend on the processing

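The count of genes with a 24-h rhythm stayed within 1.5 times its value in all 15 alternatives (5 to 7 under NRF and 4 to 7 under DRF), as did the count of differences 12 h apart (15 to 24 of 60), and no 12-h component under NRF was called in any. No difference of ZT24 from ZT0 was called in the 14 alternatives that keep ZT24. Leaving out 1 replicate number at a time gave 5 to 7 rhythmic genes under NRF, 4 to 7 under DRF, 2 to 5 differential rhythms, 0 to 1 mesor differences, 4 to 9 differences at the same ZT, 15 to 22 differences 12 h apart, 1 to 3 12-h components under DRF and 0 under NRF. The lowest counts of 2 differential rhythms, 4 differences and 1 12-h component came without replicate 3. Over all 12008 genes, leaving out replicate 3 also lowered the differential rhythms from 5474 to 3887 and the DRF 12-h components from 2982 to 1693. Mesor differences numbered 1 without ZT24 and without replicate 4, and 3 with the proximal tubule covariate, which also gave 18 differences at the same ZT. Over all genes, mesor differences numbered 1113 in the analysis reported. They numbered 1051 without ZT24, 1000 without replicate 4 and 1464 with that covariate. The cause was not tested. Replicate numbers showed no pairing of the mice on average: deviations from group means had a mean correlation of 0.0108 for the same number and -0.000886 for other numbers. Single pairs with the same number ranged from -0.789 to 0.759, so the mean cannot exclude pairing of some mice. The fit with replicate number as a block, which drops the NRF ZT24 library with no number, called 6 genes under NRF, 6 under DRF, 5 for the differential rhythm and 8 and 19 differences. Of 1219 single values 1121 kept direction and call, 57 lost and 18 gained the call, 10 peak times moved by more than 1 SE, and 13 mesor differences that were not called changed sign. For Nampt these were 0.02 with log2(CPM + 1), 0.0027 with the deposited values taken as TPM, 0.01 with median-of-ratios rescaling and 0.02 with limma-voom, and -0.03 to 0.01 when leaving out 1 replicate number. For Kmo they were 0.02, 0.0019, 0.01 and 0.02 in the same order, and -0.04 to 0.01 when leaving out 1 replicate number, 0.0007 of these without replicate 2. Leaving out 1 replicate number gave -0.01 to 0.03 for Qprt and -0.04 to 0.12 for Nnt. The planned count-model test was not run, because the deposited unit is not counts; limma-voom on recovered reads and leaving out the library with no number were added after seeing the data. With 4 mice per group, differences that were small beside the spread of mice could be missed, whatever the depth.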
